A study of Homo sapiens with 3 samples.

Results

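NR2F and NR2E receptors are orphan members of the nuclear receptor superfamily, and 4 of them were chosen for study: NR2F1 (COUP-TFI), NR2F2 (COUP-TFII), NR2F6 (EAR2) and NR2E1 (TLX). A probe set, the group of oligonucleotides that reports 1 transcript on the array, was taken as a member where its only gene symbol in the platform annotation was 1 of these. That gave 5 of the 54675 probe sets, 1 for NR2F1, 3 for NR2F6 and 1 for NR2E1, so 3 of the 4 genes were measured and NR2F2 is not analysed here. The study hybridised RNA from 3 cultures of H9, an established human embryonic stem cell line, to Affymetrix expression arrays, 1 array per group. RA astrocytes were at day 210 and had received retinoic acid from day 10 to day 21. FGF8 astrocytes were at day 210 and had received fibroblast growth factor 8 over the same days. Neuroepithelial cells were at day 17 and had no morphogen. All 3 cultures went through embryoid bodies, and all carry the genotype of 1 line.

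With 1 array per group there is no replicate spread, no test and no standard error, so the number of arrays sets the precision and each difference below describes 2 arrays. The genes were selected on differences seen earlier between these same arrays, so their values are a description. Signals were quantile normalized and are given on the log2 scale. The floor was 4.72 (a signal of 26.4), the midpoint of all probe sets without the controls. Where 1 of 2 arrays lay below it, the difference is only a bound and is given as at least that size. The labels were checked against marker genes: 10 of 10 astrocyte markers lay above the floor in the RA array, 10 in the FGF8 array and 6 in the neuroepithelial array, with GFAP at 13.83, 11.58 and 2.58. ALDH1L1, another astrocyte marker, was similar throughout, at 5.51, 5.44 and 5.25. Of 8 neuroepithelium markers, 6 were at least 2-fold lower and 1 higher in RA astrocytes than in neuroepithelial cells. In FGF8 astrocytes 5 were lower and 0 higher. Of all genes compared, 14.6% were lower and 18.1% higher in RA astrocytes, and 10.2% and 12.8% in FGF8 astrocytes. The signal at the 3′ end of ACTB over that at its 5′ end, a measure of RNA or labelling length, was 6.67 in the RA array, 6.63 in the FGF8 array and 1.33 in the neuroepithelial array. For GAPDH the same ratio was 1.79, 1.65 and 0.98, a smaller gap. Both ratios move with every difference from neuroepithelial cells below, and their part in them was not tested.

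These receptors have a zinc finger domain that binds DNA and a ligand-binding domain, and they act mostly as repressors. In the mouse, COUP-TFI forms a gradient over the developing cortex, high caudally and low at the rostral pole, where FGF8 signalling holds it down, and retinoic acid induces COUP-TF genes in embryonal carcinoma cells. COUP-TFI and COUP-TFII are also known in mouse neural progenitors for permitting the passage from making neurons to making glia. TLX is restricted to forebrain and retina, where it keeps neural stem cells dividing and represses astrocyte genes such as Gfap in the mouse. EAR2 is a broadly expressed relative that pairs with other family members.

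The promoters of the pair of genes whose signals separated the 2 astrocyte cultures are shown from RefSeq (GRCh38.p14), from 250 bases before to 50 bases after the transcript start. The NR2F1 window is chr5:93582972-93583271 on the plus strand and the NR2E1 window is chr6:108165772-108166071 on the plus strand. Capitals mark matches on either strand to AGGTCA, the recognition motif of most nuclear receptors, AGTTCA, a variant that retinoid receptors also use, or AAGTCA, the motif of TLX.
NR2F1: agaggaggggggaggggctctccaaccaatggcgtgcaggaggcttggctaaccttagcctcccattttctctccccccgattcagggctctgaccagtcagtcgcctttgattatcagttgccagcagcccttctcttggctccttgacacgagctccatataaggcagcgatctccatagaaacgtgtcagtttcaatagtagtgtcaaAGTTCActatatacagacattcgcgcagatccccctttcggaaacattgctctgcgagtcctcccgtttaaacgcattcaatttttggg
NR2E1: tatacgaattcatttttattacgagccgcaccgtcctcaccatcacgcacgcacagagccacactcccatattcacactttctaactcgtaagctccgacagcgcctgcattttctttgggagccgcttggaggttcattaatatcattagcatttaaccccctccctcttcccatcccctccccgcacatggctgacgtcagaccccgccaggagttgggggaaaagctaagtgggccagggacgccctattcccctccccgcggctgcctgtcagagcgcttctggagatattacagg
The NR2F1 window held 1 match, to AGTTCA, which begins at position -39 from the start, and the NR2E1 window held 0. Of 35116 promoter windows of this length, 10.4% held AGTTCA, 13.8% AGGTCA, 12.5% AAGTCA and 31.5% at least 1 of them. A second annotated start of NR2F1 also had 1 match to AGTTCA, and a second start of NR2E1 had 1 to AGGTCA on the minus strand. These matches describe letters only.

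NR2F1 was high after retinoic acid, below the floor after FGF8, and between them in neuroepithelial cells. Its probe set had a deposited signal of 2884 in the RA array, 12.4 in the FGF8 array and 1076 in the neuroepithelial array. After normalization the log2 signals were 11.39, 3.90 and 10.14 in the same arrays. NR2F1, a transcription factor of caudal cortical identity in the mouse, was thus bright in 2 cultures and below the floor in the FGF8 astrocytes. The floor is a chosen level and not a test of detection. It was at least 101.6-fold higher in RA astrocytes than in FGF8 astrocytes, a log2 difference of 6.67 at its bound. Relative to neuroepithelial cells it was 2.37-fold higher in RA astrocytes (log2 1.24) and at least 42.9-fold lower in FGF8 astrocytes (log2 -5.42). The first of these is small beside the second, and it lies near the 2-fold size used for counting. In bulk RNA, fewer cells that express a gene and less RNA per cell cannot be told apart.

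NR2F1-AS1, a long non-coding RNA whose gene lies beside NR2F1 on the opposite strand, has 3 probe sets of its own. It is no member and was looked up after the NR2F1 values were seen. Its brightest probe set had log2 signals of 8.33 in RA astrocytes, 4.91 in FGF8 astrocytes and 7.86 in neuroepithelial cells. The order of the 3 arrays was that of NR2F1, and the FGF8 value was just above the floor. It was 10.7-fold higher in RA than in FGF8 astrocytes, 7.74-fold lower in FGF8 astrocytes than in neuroepithelial cells, and 1.38-fold higher in RA astrocytes than in neuroepithelial cells. The other probe sets of NR2F1-AS1 were dim. They read 5.46 and 4.86 in RA astrocytes, -0.70 and 3.12 in FGF8 astrocytes, and 4.59 and 3.84 in neuroepithelial cells, so the RA array was the only 1 of the 3 above the floor for both. Whether NR2F1 RNA contributes to these probe sets was not tested. For NR2F2-AS1, the antisense gene at the NR2F2 locus, the single probe set had deposited signals of 13.4 in RA astrocytes, 2.23 in FGF8 astrocytes and 37.0 in neuroepithelial cells, above the floor in the last alone, and it says nothing of NR2F2 itself.

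NR2E1 showed another order: highest in neuroepithelial cells, intermediate in FGF8 astrocytes and below the floor in RA astrocytes. Its probe set had a deposited signal of 1.94 in the RA array, 117 in the FGF8 array and 630.2 in the neuroepithelial array, or log2 signals of 1.07, 6.89 and 9.33. The forebrain stem cell receptor therefore remained measurable in 1 of the astrocyte cultures. It was at least 24.5-fold lower in RA astrocytes than in neuroepithelial cells (log2 -4.61) and 5.43-fold lower in FGF8 astrocytes than in neuroepithelial cells (log2 -2.44). Between the astrocyte cultures it was at least 4.51-fold lower in RA than in FGF8 (log2 -2.17). NR2F1 and NR2E1 thus lay on opposite sides of the RA and FGF8 comparison, each below the floor in the culture where the other was measured. In neuroepithelial cells both were measured.

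**Figure D1:**
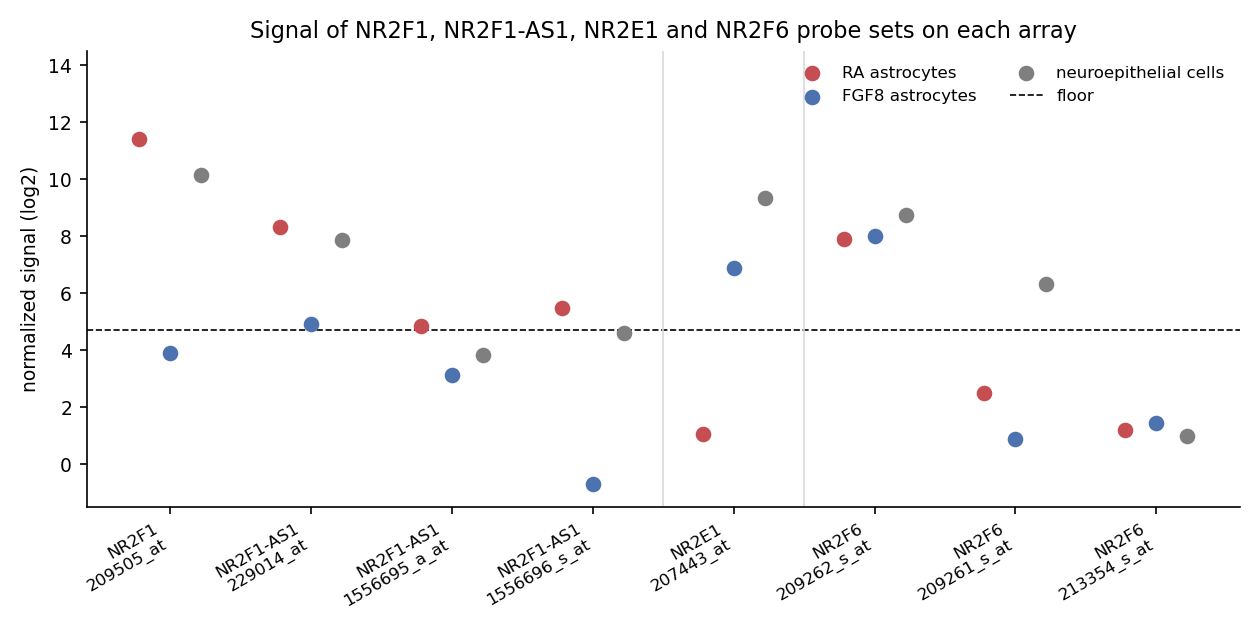
Normalized log2 signal (vertical axis) of each probe set of NR2F1, its antisense neighbour NR2F1-AS1, NR2E1 and NR2F6 (horizontal axis), 1 point per array, with the floor as a dashed line. NR2F1 reads 11.39 in RA astrocytes, 3.90 in FGF8 astrocytes and 10.14 in neuroepithelial cells, while NR2E1 reads 1.07, 6.89 and 9.33.

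NR2F6 differed little between the astrocyte cultures and was lower in both than in neuroepithelial cells, by less than 2-fold on its brightest probe set. That probe set had deposited signals of 232 in RA astrocytes, 255 in FGF8 astrocytes and 422 in neuroepithelial cells, or log2 signals of 7.89, 7.99 and 8.74. It was 1.80-fold lower in RA astrocytes and 1.68-fold lower in FGF8 astrocytes than in neuroepithelial cells. The RA array was 1.07-fold below the FGF8 array, the smallest difference among the members. The probe sets of NR2F6 did not give the same size. A second read 2.50 in RA astrocytes, 0.90 in FGF8 astrocytes and 6.32 in neuroepithelial cells, so it was at least 3.02-fold lower in each astrocyte culture. The third lay below the floor on every array, at 1.19, 1.45 and 0.99, and gave no difference. With array medians set equal, the brightest probe set moved to -0.45 in RA astrocytes and -0.26 in FGF8 astrocytes relative to neuroepithelial cells, while the median of all genes moved to 0.34 and 0.42.

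By gene, in RA astrocytes against neuroepithelial cells, 1 of 3 receptors was at least 2-fold higher (NR2F1) and 1 lower (NR2E1), where 18.1% of 13339 genes compared were higher and 14.6% lower. In FGF8 astrocytes against neuroepithelial cells, 0 of 3 were higher and 2 lower (NR2F1 and NR2E1), where 12.8% of 13004 genes were higher and 10.2% lower. In RA against FGF8 astrocytes, 1 of 3 was higher (NR2F1) and 1 lower (NR2E1), where 9.69% of 12958 genes were higher and 7.86% lower. By probe set, 4 of 5 members could be compared in each astrocyte culture against neuroepithelial cells and 3 of 5 between the astrocyte cultures. Of these, 3 passed 2-fold in RA astrocytes, 3 in FGF8 astrocytes and 2 between them, where 32.0%, 22.8% and 16.9% of all probe sets with 1 gene symbol did. Both comparisons with neuroepithelial cells share that array, and every pair of comparisons shares 1 array.

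**Figure D2:**
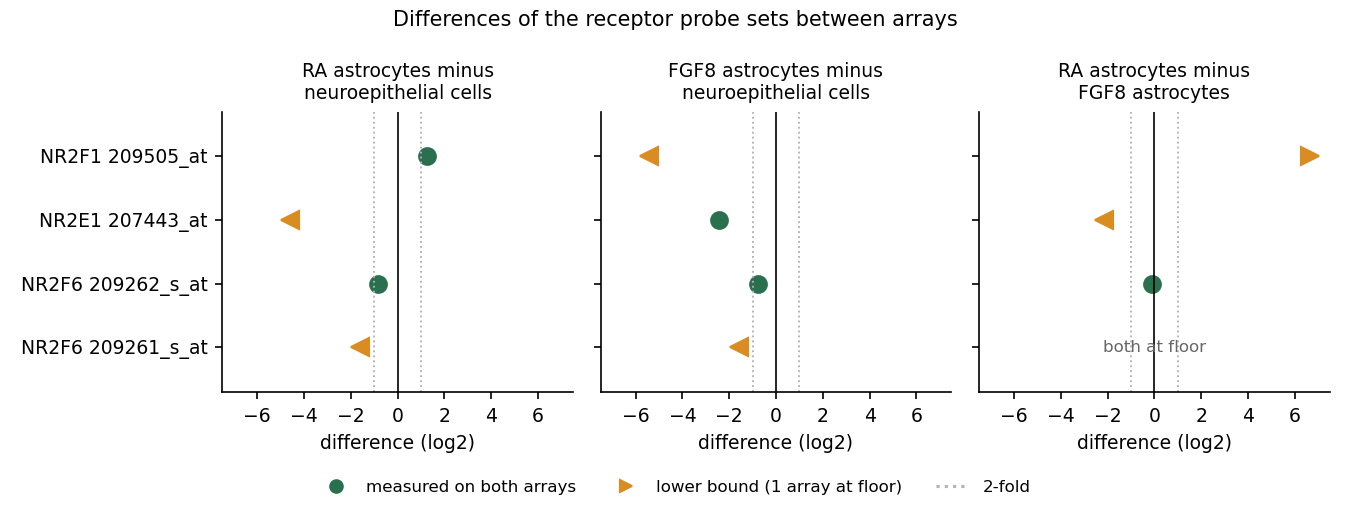
Log2 difference (horizontal axis) of 4 receptor probe sets (rows) in the 3 comparisons (panels), with circles for differences measured on both arrays, triangles for lower bounds, and dotted lines at 2-fold. NR2F1 is at 1.24 in RA astrocytes and at its bound of -5.42 in FGF8 astrocytes relative to neuroepithelial cells, while NR2E1 lies below 0 in all 3 panels.

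The genes most like each receptor were found by the distance between log2 signals centred on their mean over the 3 arrays, among 13735 genes above the floor on at least 1 array. With 3 arrays many genes can share a shape. For NR2F1 they were CA3, a carbonic anhydrase, RMST, a long non-coding RNA of neural progenitors, and ZNF503, a zinc finger repressor, at distances of 0.35, 0.37 and 0.82. CA3 was dim, at 5.59 in RA astrocytes, -1.53 in FGF8 astrocytes and 4.81, just above the floor, in neuroepithelial cells. RMST read 10.43 in RA astrocytes, 3.22 in FGF8 astrocytes and 9.71 in neuroepithelial cells, below the floor in the same array as NR2F1. For NR2E1 they were ROR1, a receptor tyrosine kinase, NNAT, an imprinted neuronal gene, and TES, a LIM domain protein, at distances of 0.39, 0.72 and 0.97. NNAT read 4.71, at the edge of the floor, in RA astrocytes, 10.44 in FGF8 astrocytes and 12.05 in neuroepithelial cells. These distances take in NR2F1 in FGF8 astrocytes and NR2E1 in RA astrocytes, both below the floor, where a signal has no reliable size. With values below the floor set to it, an alternative chosen after seeing the data, the genes for NR2F1 were RMST, ZNF503 and TPBG, without CA3. For NR2E1 they were AURKB, FN1 and FZD5. So every name for NR2E1, and CA3 for NR2F1, rest on how such values are treated. For NR2F6 they were AGPAT2, DIXDC1 and SSR3, with distances of at most 0.019, the same by both treatments, and none of these 3 genes differed between the astrocyte arrays by 2-fold.

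Related receptors lay mostly within 2-fold between the astrocyte cultures, as did most of all genes, of which 9.69% were higher and 7.86% lower in RA. Of 10 other NR2 and retinoid receptors on the array 7 could be compared between RA and FGF8 astrocytes, and 0 passed 2-fold in either direction. Against neuroepithelial cells, NR2C1 (TR2) was 2.09-fold lower in RA astrocytes, though another of its probe sets gave 0.55 against -1.06 and equal array medians gave -0.65, and the retinoic acid receptor RARA was 2.44-fold higher in FGF8 astrocytes. Of 24 other nuclear receptors, 1 of 15 compared was higher in RA than in FGF8 astrocytes, the orphan receptor RORA by 3.60-fold, and 1 was lower, RORB, by at least 3.77-fold. For RORA and for RORB, another probe set lay below the floor in both astrocyte arrays and gave no difference between them. RORB, a receptor of cortex and retina, read 1.48 in RA astrocytes, 6.63 in FGF8 astrocytes and 7.52 in neuroepithelial cells, the same order as NR2E1. Both astrocyte cultures had higher NR3C1, the glucocorticoid receptor, by 16.5-fold in RA and 8.82-fold in FGF8, and lower NR6A1, the germ cell nuclear factor, by 6.86-fold and 4.43-fold.

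Some RNAs of proteins that bind these receptors differed between the arrays, in shares not far from those of all genes. Of 19 partners and corepressors, 1 was at least 2-fold higher and 3 lower in RA than in FGF8 astrocytes, where 9.69% and 7.86% of all genes were, with a median of -0.49 where that of all genes was 0.0098. BCL11A and BCL11B, zinc finger proteins first known as COUP-TF interactors, were 3.96-fold and 7.21-fold lower in RA astrocytes. BCL11B read 4.93 in RA astrocytes, 7.78 in FGF8 astrocytes and 4.52 in neuroepithelial cells, so it was bright in the culture where NR2F1 was below the floor. Whether BCL11B and NR2F1 are linked here was not tested. ATN1, an atrophin that binds TLX in the mouse, was 8.38-fold higher in RA than in FGF8 astrocytes. Against neuroepithelial cells, 4 partners were higher and 3 lower in RA astrocytes, where 18.1% and 14.6% of all genes were, and 4 were higher and 0 lower in FGF8 astrocytes, where 12.8% and 10.2% were. ZFPM2 (FOG2), a cofactor of COUP-TFII, was 5.04-fold higher in RA and 8.83-fold higher in FGF8 astrocytes, and HDAC2, KDM1A and RCOR2, enzymes and a scaffold of repressor complexes, were 2.55-fold, 2.09-fold and 2.42-fold lower in RA astrocytes. With array medians set equal, HDAC2 (-0.77) and KDM1A (-0.56) no longer passed 2-fold, so 1 partner was lower, and KDM1A was at -0.97 as deposited. RCOR2 was at -0.02 with the floor at the 70th percentile.

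Genes reported downstream of TLX were led by astrocyte genes. Of 8 compared against neuroepithelial cells, 4 were higher and 1 lower in RA astrocytes (median 1.20, all genes 0.067), and 4 were higher and 2 lower in FGF8 astrocytes (median 0.89, all genes 0.048). Of all genes compared, 18.1% were higher and 14.6% lower in RA astrocytes, and 12.8% and 10.2% in FGF8 astrocytes. The lower count in FGF8 astrocytes was 1 with values as deposited or with array medians set equal. GFAP, S100B and AQP4 are also among the astrocyte markers used to check the labels. GFAP was at least 553-fold higher in RA astrocytes and at least 116-fold higher in FGF8 astrocytes. AQP4, a water channel, was at least 157-fold and at least 154-fold higher, and the cell cycle inhibitor CDKN1A 3.24-fold and 2.34-fold higher. Between the cultures 1 of 7 passed 2-fold upwards, GFAP at 4.77-fold, and 1 downwards, the deacetylase SIRT1 at 2.01-fold. Of all genes compared, 9.69% were higher and 7.86% lower in RA than in FGF8 astrocytes. S100B was 1.60-fold and AQP4 1.02-fold higher in RA than in FGF8 astrocytes. Any part of NR2E1 in these differences was not tested.

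Of 16 genes reported downstream of or opposed to COUP-TF, 14 could be compared between the astrocyte cultures, with 1 higher and 6 lower in RA than in FGF8 (median -0.26). Of all genes compared, 9.69% were higher and 7.86% lower (median 0.0098). SP8, a rostral patterning factor that opposes COUP-TFI in the mouse, was 38.6-fold lower in RA than in FGF8 astrocytes. It read 4.96 in RA astrocytes, 10.23 in FGF8 astrocytes and 10.40 in neuroepithelial cells, so SP8 and NR2F1 were both bright in neuroepithelial cells and only 1 of them in each astrocyte culture, SP8 just above the floor after retinoic acid. ETV1 was 4.96-fold and FEZF2, a forebrain factor, at least 5.78-fold lower in RA than in FGF8 astrocytes. With the floor at the 70th percentile, FEZF2 was at -0.67 and 5 of the 14 genes were lower. EMX2, a caudal cortical factor in the mouse, was at least 55.3-fold lower in either astrocyte culture than in neuroepithelial cells, and PAX6 was 3.15-fold lower in RA and 3.64-fold lower in FGF8 astrocytes. RND2, a small GTPase, was 2.61-fold higher in RA than in FGF8 astrocytes. Any part of NR2F1 in these differences was not tested.

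Genes of the signals reported to set NR2F levels were measured long after the morphogens ended. Of 12 compared between RA and FGF8 astrocytes, 5 were higher and 3 lower (median 0.37). Of all genes compared, 9.69% were higher and 7.86% lower (median 0.0098). With the floor at the 70th percentile, 3 of 9 were higher and 3 lower. The FGF receptor FGFR2 was 3.65-fold higher in RA astrocytes, where 3 of 4 other probe sets lay on the same side and another gave -0.18. DHRS3, a retinoid-inducible reductase, was 3.20-fold and the FGF receptor FGFR3 2.76-fold higher in RA astrocytes, and the FGF targets ETV5 and DUSP6 were 2.81-fold and 2.40-fold lower. With the floor at the 70th percentile, DHRS3 was at 0.65. SPRY2, a feedback inhibitor induced by FGF, went the other way, 2.35-fold higher in RA astrocytes, and its relative SPRY1 was at -0.06, so FGF targets had no shared direction. The retinoid carrier CRABP2 was 31.8-fold lower in RA and 47.8-fold lower in FGF8 astrocytes than in neuroepithelial cells. FGF8 itself lay below the floor on all arrays.

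**Figure D3:**
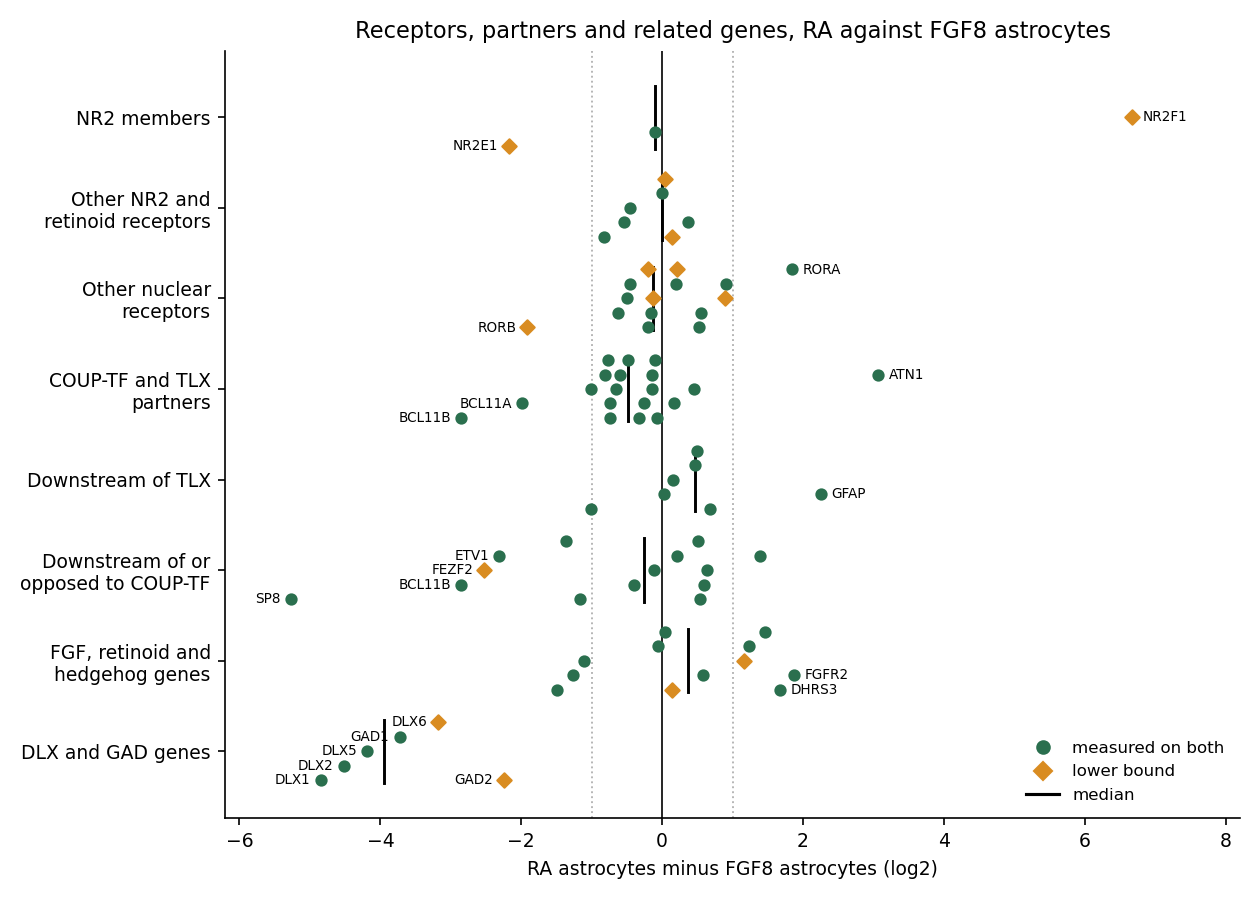
Log2 difference in RA minus FGF8 astrocytes (horizontal axis) for NR2F1, NR2E1 and NR2F6 and for the genes of 7 lists (rows), with circles for genes measured on both arrays, diamonds for lower bounds, bars for list medians and dotted lines at 2-fold. NR2F1 lies at its bound of 6.67 on the far right, and SP8, at -5.27, lies on the far left.

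Markers of some other cell types also differed between the arrays. In RA against FGF8 astrocytes, 6 of 6 ventral forebrain and GABA genes were at least 2-fold lower (median -3.95), and their summed signal was 895 in RA astrocytes, 18444 in FGF8 astrocytes and 1714 in neuroepithelial cells. DLX1 was 28.6-fold and GAD1 13.2-fold lower in RA astrocytes. Of all genes compared, 9.69% were higher and 7.86% lower in RA than in FGF8 astrocytes. Of 7 mesenchymal genes, 0 lay above the floor in RA astrocytes, 2 in FGF8 astrocytes and 7 in neuroepithelial cells, with summed signals of 54.3, 121 and 7826. Endothelial genes, of interest since NR2F2 marks veins, were above the floor for 0, 1 and 3 of 6 genes, with PECAM1, KDR and TEK the 3 in neuroepithelial cells. Endoderm genes summed to 84.9 in RA astrocytes, 97.5 in FGF8 astrocytes and 2298 in neuroepithelial cells, with 2 of 5 above the floor on each array. In neuroepithelial cells these were AFP at 9.41 and KRT18 at 10.63. Oligodendrocyte lineage genes summed to 1074 in RA astrocytes, 6450 in FGF8 astrocytes and 375 in neuroepithelial cells, with 4, 3 and 4 of 6 genes above the floor. PDGFRA, a receptor of their precursors, was 7.56-fold lower in RA than in FGF8 astrocytes, the 1 of 4 compared that passed 2-fold. It read 12.55 in FGF8 astrocytes and made up most of the sum there, where MBP, MOG and SOX10 lay below the floor. Choroid plexus genes summed to 148, 1144 and 1825 in the same arrays, with 1 gene compared between the astrocyte cultures, the folate receptor FOLR1, which was 9.70-fold lower in RA, while its other probe set gave 0.40 against -3.28. Neuronal genes summed to 11057, 13838 and 14431, and the sum covers moves in both directions, with 2 of 7 genes higher and 3 lower in RA than in FGF8 astrocytes. The synaptic gene SYT1 was 5.09-fold and STMN2 at least 5.79-fold higher in RA astrocytes, and DCX, of young neurons, was 11.6-fold and ELAVL4 2.67-fold lower, with SNAP25 lower too (log2 -2.17 at its bound). With the floor at the 70th percentile, 1 of 7 was higher and 1 lower. STMN2 was then at 0.68, ELAVL4 at -0.07 and SNAP25 at -0.31. The part of these cells in the NR2F1 and NR2E1 differences was not tested.

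**Figure D4:**
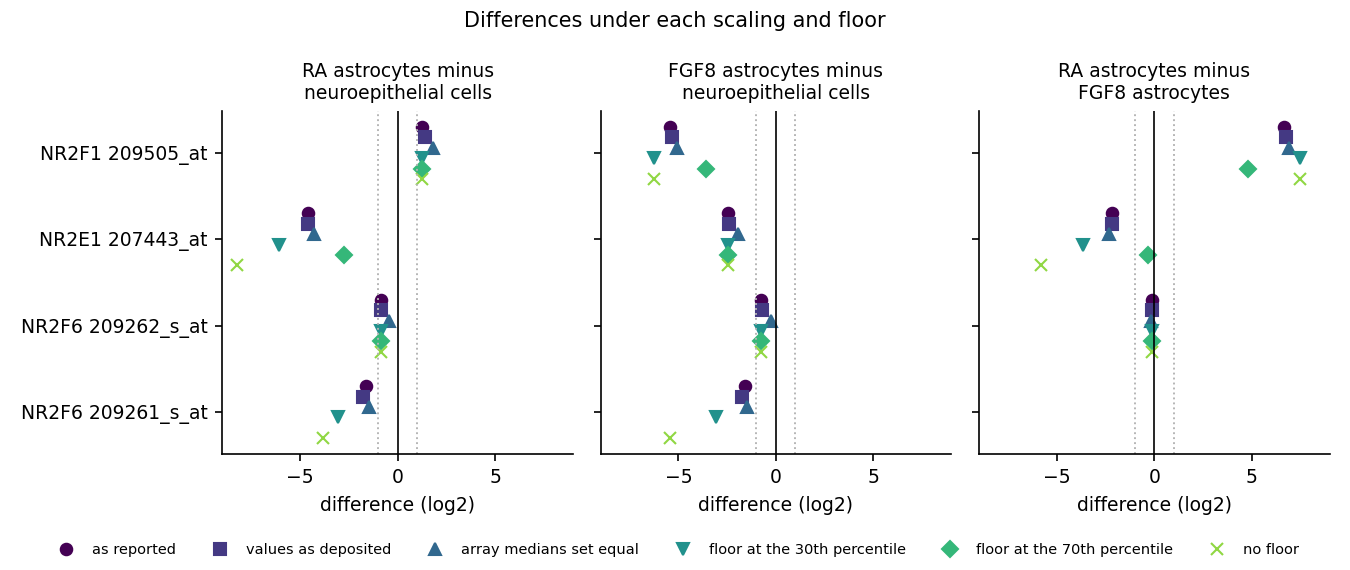
Log2 difference (horizontal axis) of 4 receptor probe sets (rows) in the 3 comparisons (panels) under the reported setting and 5 other scalings and floors (markers). No value crosses 0, and the bounds of NR2F1 and NR2E1 shift with the floor, NR2E1 in RA minus FGF8 astrocytes to -0.32 with the floor at the 70th percentile.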

How the data were processed

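Total RNA was extracted with Trizol and a column cleanup and labelled with biotin at a core facility, per the labels' protocols. The authors' deposited values are a linear intensity for each probe set. Their mean without the lowest and highest 2% was 150.02 on every array, so each array had been scaled before deposit, by an algorithm not given in the sources here. The 75th percentiles differed by 0.14 log2 units. Linear intensities of 54613 non-control probe sets were quantile normalized over the 3 arrays and brought to log2 (Python 3.11.15, numpy 2.4.6, pandas 2.3.3). A gene was represented by its brightest probe set, with the less specific _x_at type used only where it had no other. Of the probe sets 41091 carried 1 symbol, 1801 several and 11721 none. The annotation gave 19775 genes. The procedure was tested on simulated data with changes placed only in probe sets brighter than the array midpoint, so dimmer genes were not covered.

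The members and lists were chosen with earlier results of these data known, and lists of reported partners and targets rest on background knowledge. All probe sets of the members are given, with up to 3 genes per direction from each list and the 3 genes nearest in pattern. Genes without a probe set of 1 symbol were not analysed here. Alternatives were no further scaling, scaling to equal medians, a floor at the 30th percentile, at the 70th or absent, sizes of 1.5-fold and 4-fold, plain _at probe sets alone, and averaging the probe sets of a gene.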

Additional observations from a re-analysis of the deposited data

Results flagged for a closer look

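NR2F1 moved in opposite directions in the 2 astrocyte cultures relative to neuroepithelial cells, with a log2 difference of 1.24 in RA astrocytes and at its bound of -5.42 in FGF8 astrocytes. Both are past 2-fold, and both use the same neuroepithelial array. With 1 array per group the difference between them was not tested.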

How the results depend on the processing

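None of the member probe set differences that could still be given changed direction under the 2 other scalings and 3 other floors. The values as deposited moved none by over 1.5-fold. With the floor at the 30th percentile or absent, 6 of 11 differences moved by over 1.5-fold or across 2-fold. With the floor at the 70th percentile 9 could be given, since the second NR2F6 probe set lay below it on every array. The count past 2-fold in RA astrocytes against neuroepithelial cells was 3 of 4 compared. It was 2 of 3 with the floor at the 70th percentile, and 1 at 4-fold. Between RA and FGF8 astrocytes it was 2, and was 1 with the floor at the 70th percentile, where NR2E1 in FGF8 astrocytes stood little above that floor (-0.32). The bounds follow the floor by construction, and with no floor they become plain differences. NR2F1 in RA minus FGF8 astrocytes ran between 4.81 and 7.49, and in FGF8 astrocytes minus neuroepithelial cells between -6.25 and -3.57. NR2E1 in RA astrocytes minus neuroepithelial cells ran between -8.26 and -2.76. With array medians set equal, NR2F1 in RA astrocytes minus neuroepithelial cells was 1.83 against 1.24. Under that scaling, of all genes, 25.4% were higher and 10.5% lower in RA astrocytes (18.1% and 14.6% otherwise), and 21.9% and 7.07% in FGF8 astrocytes (12.8% and 10.2%). No paired analysis was possible because each group had 1 array.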
